A study of Mus musculus with 12 samples.

Results

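The alpha chain of the T cell receptor is assembled in the thymus by joining 1 of many variable segments, named Trav, to 1 of many joining segments, named Traj, ahead of the single constant gene Trac. The Trav segment encodes the first and second complementarity-determining loops of the chain, which lie over the helices of the MHC molecule when a T cell reads a peptide. In mice with unaltered coreceptor loci, helper cells carry CD4 and are selected on MHC class II. Cytotoxic cells there carry CD8 and are selected on MHC class I. Trav usage was compared between the lineages on this background, and whether selection gave any difference was not tested. All rows of the count table with a symbol beginning with Trav were taken, 128 of 49585 genes, and the 66 with a mean of 10 or more counts over the 12 samples were used. These 66 fell into 18 of the 23 subfamilies, a subfamily being the segments that share the number after Trav.

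The 12 RNA-seq libraries came from lymph node T cells of male mice aged 6 to 10 weeks, sorted as TCRβ+CD62L+, with CD44- added in the study's methods. RNA was made from pooled sorted cells, per the labels. B6 CD4+ and B6 CD8+ cells were from C57BL/6 mice, whose coreceptor loci are unaltered. CD8.1 and CD8.2 cells were from CD8Dual mice, in which the Cd4 loci were changed to encode CD8α.1 with CD8β and the intact Cd8 loci encode CD8α.2 with CD8β, so that both lineages of this strain bear CD8 and neither bears CD4. The CD8.1 cells thus express the coreceptor gene of the helper lineage and the CD8.2 cells that of the cytotoxic lineage, and each of the 4 groups had 3 samples. The paper reports that CD8.1 and CD8.2 cells are both selected on MHC class I, unlike B6 CD4+ helper cells. The labels do not say whether the samples of a group came from separate mice, so p-values measure the spread between these samples only. Libraries held 18667474 to 37110502 counts, of which Trav rows took 3684 to 7584, or 0.0184% to 0.0333%. The used segments held 99.07% to 99.53% of all Trav counts in each sample. At the lowest depth, 467 counts of Trav16 among 3684 gave a share of 12.7%, with a 95% Wilson interval of 11.6% to 13.8% that covers counting error only.

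The labelled cells were checked against marker genes. All 6 general T cell markers were present, with a summed level of 3810 to 4630 CPM (counts scaled to library size by TMM) in every sample, and the 4 naive markers summed to 3610 to 4050. The 5 regulatory T cell markers, with Foxp3 among them, summed to 350 to 385 CPM in CD8.1, 133 to 185 in B6 CD4+, 55.1 to 59.8 in B6 CD8+ and 54.0 to 56.4 in CD8.2. Foxp3 itself was at 102 to 168, 32.6 to 44.6, 0.182 to 0.529 and 0.809 to 1.46 CPM in that order. The 6 myeloid markers summed to 15.7 to 19.6 CPM in CD8.1 and 9.36 to 21.6 in CD8.2, against 4.28 to 8.0 and 4.22 to 7.7 in B6 CD4+ and B6 CD8+. The 6 B cell markers, of which Ighm made up most, summed to 643 to 782 CPM in CD8.1, 591 to 679 in CD8.2, 534 to 572 in B6 CD4+ and 630 to 657 in B6 CD8+. The gamma delta list had 4 of 7 genes in the table, which summed to 13.8 to 14.6, 8.88 to 9.64, 15.8 to 17.8 and 9.07 to 11.9 CPM in B6 CD4+ and B6 CD8+ cells and then in CD8.1 and CD8.2. Of the 6 markers of CD4+CD8+ thymocytes, Rag2 was at 0 in every sample and the sum ran from 27.3 to 49.1 CPM. Cd1d1, at 24.1 to 37.6 CPM, made up most of that sum. The 6 markers of NKT and MAIT cells summed to 16.0 to 22.1 CPM. Mr1, at 15.3 to 20.3 CPM, made up most of it, so the sum mainly follows Mr1. Zbtb16 was at 0.191 to 1.02 CPM in CD8.1, 0 to 0.0426 in CD8.2 and 0 in B6. Klrb1c was at 0.285 to 1.02 CPM in CD8.1 and 1.11 to 1.94 in CD8.2. In B6 CD4+ and B6 CD8+ Klrb1c was at 0.182 to 0.517 and 1.35 to 2.5. Trav11 was at 0 in every sample. Nearly all of its transcript is shared with Trav11d, so this 0 is no measure of NKT cells. The part of regulatory, myeloid, NKT and MAIT cells in the Trav results was not tested.

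The locus lies on chromosome 14 of GRCm38, the build named for the deposited counts (mm10), and positions are from the GENCODE M21 annotation, whose identifiers matched all 128 rows. The 128 rows span 52427928 to 53977678, the J segments follow from 54155005 to 54218842, and Trac lies at 54220521 to 54224206. All 66 used segments are on the plus strand and have 2 annotated exons. The locus of this strain carries a stretch of segments in 3 copies, marked d, n or by no letter, and some copies are near-identical. Among windows of the length of 1 read, 38 rows had none that was absent from every other Trav transcript, and all 38 had a mean under 10 counts, the highest being 2.08. The other 90 rows had at least 1 such window, and 66 of them were used. Of the 24 that were not, 15 are annotated pseudogenes. Among the rows with no letter 42 of 55 were used, against 13 of 39 d rows and 11 of 34 n rows. The 3 used rows nearest the limit were Trav13n-3 with a mean of 10.5 counts and Trav13d-4 and Trav15-2-dv6-2 with 13.8 each, and the nearest rows left out were Trav9n-1, Trav11n and Trav20 with 5.67, 5.5 and 4.75. The plot of counts against unique windows shows this relation for all 128 rows. How the authors' counting treated reads that fit several copies is not given in the sources used here, so every share below is a share of the Trav reads that were assigned to a row.

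**Figure D1:**
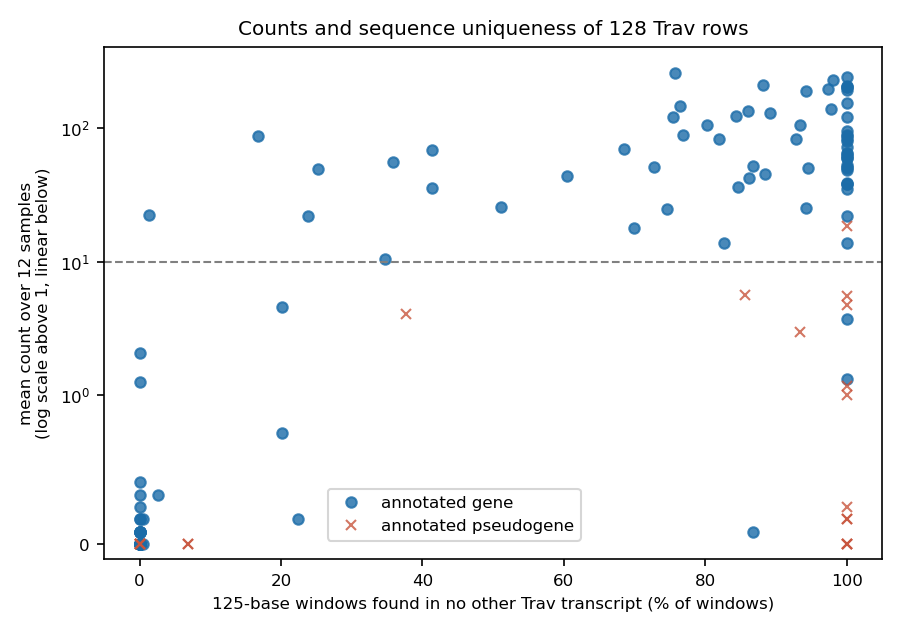
Mean count over the 12 samples (log scale above 1, linear below) against the percentage of read-length windows of a transcript found in no other Trav transcript, with 1 mark per Trav row, annotated genes as circles and pseudogenes as crosses. The 38 rows at 0% all lie under the dashed line at 10 counts, and all 66 rows above the line have at least 1 unique window.

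Trav11, the segment of the invariant NKT cell receptor (Vα14), is the plainest case. The last 150 bases of its V exon are shown with those of its copies because a read of Trav11 can hardly be told from a read of Trav11d. Capitals mark the bases that differ from Trav11 in the ungapped comparison:
Trav11 (chr14:53519710-53519859): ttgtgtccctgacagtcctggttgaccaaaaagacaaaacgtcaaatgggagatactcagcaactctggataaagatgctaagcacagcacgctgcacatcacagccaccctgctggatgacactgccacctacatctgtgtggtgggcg
Trav11d (chr14:52824763-52824912): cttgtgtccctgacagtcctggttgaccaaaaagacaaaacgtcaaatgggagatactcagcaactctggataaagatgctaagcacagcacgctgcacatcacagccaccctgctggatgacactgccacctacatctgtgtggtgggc
Trav11n (chr14:53135529-53135678): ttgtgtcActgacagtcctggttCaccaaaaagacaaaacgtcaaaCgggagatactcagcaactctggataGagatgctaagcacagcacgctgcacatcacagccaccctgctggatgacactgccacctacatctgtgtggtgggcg
Trav11d ended 1 base earlier and had 0 differences from Trav11 over its 150 bases, and only 1 of the 219 windows of Trav11 (0.457%) was absent from Trav11d. Trav11 was listed at 0 in all 12 samples and Trav11d reached 1 count in a single sample. Trav11n, an annotated pseudogene with 4 differences and all windows unique, had a mean of 5.5 counts. Among all Trav rows 17 pairs had identical transcripts, 16 of them a d with an n copy, such as Trav14d-1 with Trav14n-1 and Trav12d-2 with Trav12n-2. In 4 further pairs, Trav11 with Trav11d among them, 1 transcript lay within the other. The 34 rows of the identical pairs fell in 10 subfamilies and 0 of them were used. These 10 subfamilies are therefore measured through their other members.

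Most results below turn on Trav16 and Trav14, and their members are shown for how alike they are at the 3′ end of the V exon. Capitals mark bases that differ from Trav16 in the Trav16 set:
Trav16 (chr14:53743556-53743705): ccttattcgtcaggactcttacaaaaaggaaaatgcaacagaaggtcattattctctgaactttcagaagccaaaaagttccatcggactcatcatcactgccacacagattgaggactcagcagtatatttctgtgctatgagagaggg
Trav16n (chr14:53351472-53351621): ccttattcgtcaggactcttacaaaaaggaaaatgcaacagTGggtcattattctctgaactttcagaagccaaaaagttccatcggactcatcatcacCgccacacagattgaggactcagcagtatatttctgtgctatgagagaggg
Trav16d-dv11 (chr14:53047672-53047821): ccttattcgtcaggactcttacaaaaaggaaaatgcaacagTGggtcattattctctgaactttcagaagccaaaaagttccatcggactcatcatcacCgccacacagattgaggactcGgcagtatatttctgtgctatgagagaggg
Over these 150 bases Trav16n had 3 and Trav16d-dv11 had 4 differences from Trav16, and 94.3%, 75.7% and 76.9% of the windows of Trav16, Trav16n and Trav16d-dv11 were unique, so the 3 could be counted apart. In the Trav14 set (Vα2 in the older naming) capitals mark bases that differ from Trav14-1:
Trav14-1 (chr14:53554409-53554558): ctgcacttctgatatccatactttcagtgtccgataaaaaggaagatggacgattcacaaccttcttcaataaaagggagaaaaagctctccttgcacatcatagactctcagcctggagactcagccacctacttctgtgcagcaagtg
Trav14-2 (chr14:53641076-53641225): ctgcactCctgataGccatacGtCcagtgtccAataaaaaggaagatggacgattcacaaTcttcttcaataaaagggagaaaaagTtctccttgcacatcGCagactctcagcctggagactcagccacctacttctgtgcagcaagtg
Trav14-3 (chr14:53763545-53763694): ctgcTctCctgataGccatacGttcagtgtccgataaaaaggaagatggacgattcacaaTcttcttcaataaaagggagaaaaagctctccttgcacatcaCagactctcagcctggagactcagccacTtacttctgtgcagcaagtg
Trav14n-3 (chr14:53370426-53370575): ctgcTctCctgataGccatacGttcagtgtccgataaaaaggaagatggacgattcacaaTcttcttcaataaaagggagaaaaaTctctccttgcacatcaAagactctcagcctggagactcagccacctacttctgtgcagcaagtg
Trav14d-3-dv8 (chr14:53078896-53079045): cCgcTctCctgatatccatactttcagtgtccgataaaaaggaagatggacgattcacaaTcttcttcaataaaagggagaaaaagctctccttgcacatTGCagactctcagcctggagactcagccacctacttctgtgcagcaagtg
The 4 other members had 7 to 9 differences from Trav14-1 over this stretch, and all 5 shared the last 13 bases, which open with the last in-frame cysteine codon. For 3 segments of other subfamilies that differed between B6 CD4+ and B6 CD8+ cells, capitals mark that cysteine codon and the bases after it, the germline start of the third loop (CDR3):
Trav4-4-dv10 (chr14:53684028-53684177): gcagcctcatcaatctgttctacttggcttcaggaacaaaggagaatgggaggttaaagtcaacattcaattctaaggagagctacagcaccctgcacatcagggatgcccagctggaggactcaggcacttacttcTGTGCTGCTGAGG
Trav21-dv12 (chr14:53876603-53876752): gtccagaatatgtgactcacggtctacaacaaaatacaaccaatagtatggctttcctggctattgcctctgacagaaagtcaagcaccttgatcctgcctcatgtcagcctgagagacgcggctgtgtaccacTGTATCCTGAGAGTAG
Trav12-2 (chr14:53616765-53616914): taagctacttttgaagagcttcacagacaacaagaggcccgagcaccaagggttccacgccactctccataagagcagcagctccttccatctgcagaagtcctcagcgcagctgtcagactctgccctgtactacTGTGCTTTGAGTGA
The germline bases from the cysteine codon onward numbered 13 in Trav4-4-dv10, 16 in Trav21-dv12, 14 in Trav12-2 and 17 in each Trav16 member.

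Trav transcripts as a whole were more abundant in the helper lineage of both strains. The summed Trav level was 309, 327 and 302 CPM in the B6 CD4+ samples and 216, 233 and 235 in the B6 CD8+ samples. CD8.1 had 233, 255 and 234 CPM and CD8.2 had 184, 205 and 206. The groups did not overlap within either strain. With the Trav rows summed to 1 before the fit, B6 CD4+ exceeded B6 CD8+ by 0.46 on the log2 scale (SE 0.0715, adjusted p = 0.000198, edgeR quasi-likelihood test over all genes) and CD8.1 exceeded CD8.2 by 0.28 (SE 0.0716, adjusted p = 0.00817). Without CD8.2 replicate 1 the latter was 0.22 (adjusted p = 0.0594, edgeR). CD8.1 was lower than B6 CD4+ by -0.37 (adjusted p = 0.00421, edgeR), while CD8.2 and B6 CD8+ did not pass the test at -0.2 (adjusted p = 0.0977, edgeR). Because of this shift, each comparison below is also given scaled to the Trav total of each sample, so that a change is a change of usage among Trav counts. In bulk samples fewer cells with a segment and less RNA per cell cannot be told apart. Shares are given by sample without a test of their own, since 3 samples against 3 cannot reach an exact two-sided permutation p under 0.1. That scaling moved the median of all genes tested by -0.455, -0.286, 0.377 and 0.199 in the order in which the comparisons follow. Many genes were then called, so the adjustment over all genes was weak on that scale and unequal between comparisons. In B6, 18 segments were higher and 14 lower both before and after adjustment (edgeR). Adjusted p-values on that scale are therefore not comparable from 1 comparison to another.

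Trac, the constant gene of the alpha chain, was at 970, 960 and 966 CPM in B6 CD4+ and 720, 733 and 719 in B6 CD8+, a log2 difference of 0.42 (SE 0.11, adjusted p = 0.0119, edgeR). CD8.2 had 602, 669 and 671 CPM, and CD8.1 had 778, 1180 and 1070, higher than CD8.2 by 0.64 (SE 0.111, adjusted p = 0.000506, edgeR). Per 100 Trac counts there were 31.2 to 34.0 Trav counts in B6 CD4+, 30 to 32.7 in B6 CD8+ and 30.6 to 30.7 in CD8.2, but 30, 21.7 and 22.0 in the CD8.1 samples. Replicates 2 and 3 of CD8.1 thus had fewer Trav counts for their Trac than any other library, and replicate 1 did not.

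Usage was spread over many segments in every group. The effective number of segments, the number of equally used segments that would give the same Shannon entropy, was 48.5 ± 0.351 out of 66 in B6 CD4+ and 49.3 ± 0.557 in B6 CD8+ (SD, n = 3 each). It was 50.7 ± 1.07 in CD8.1 and 50.8 ± 0.503 in CD8.2. Per kilobase of exon, the 5 leading segments made up 22.7% ± 0.374 of usage in B6 CD4+ and 22.7% ± 0.536 in B6 CD8+. In B6 CD4+ cells 4 of these 5 were Trav14 members, with Trav14n-3 in front at 5.24% ± 0.15 per kilobase. Trav16n was in front in the other groups, at 5.8% ± 0.308 in CD8.2, 5.28% ± 0.18 in B6 CD8+ and 5.03% ± 1.24 in CD8.1 (SD, n = 3). Trav13-1 and Trav14-1 were among the 5 in all 4 groups. The leading 5 in CD8.1 and CD8.2 made up 20.6% ± 1.32 and 20.9% ± 0.525.

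B6 CD4+ and B6 CD8+ cells, the helper and cytotoxic lineages with unaltered coreceptors, were compared first. Of the 66 segments, 28 were higher in B6 CD4+, or 42.4%, where 11.4% of all 13118 genes tested were higher, and 6 were lower, or 9.09%, where 11.7% of all genes were. Of the 18 subfamilies tested as sums, 10 were higher and 2 lower, beside 11.3% and 11.6% of the 13070 rows of that table. The median log2 difference was 0.57 over the segments and -0.0011 over all genes. With counts scaled to the Trav total, 18 segments were higher and 14 lower, with 4.62% and 60.9% of all genes called on that scale. Of the subfamilies 6 were then higher and 7 lower, beside 4.54% and 61.1% of the rows, and Trav5, Trav6, Trav10 and Trav15 were no longer called. The plot of subfamily shares shows the values by sample.

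**Figure D2:**
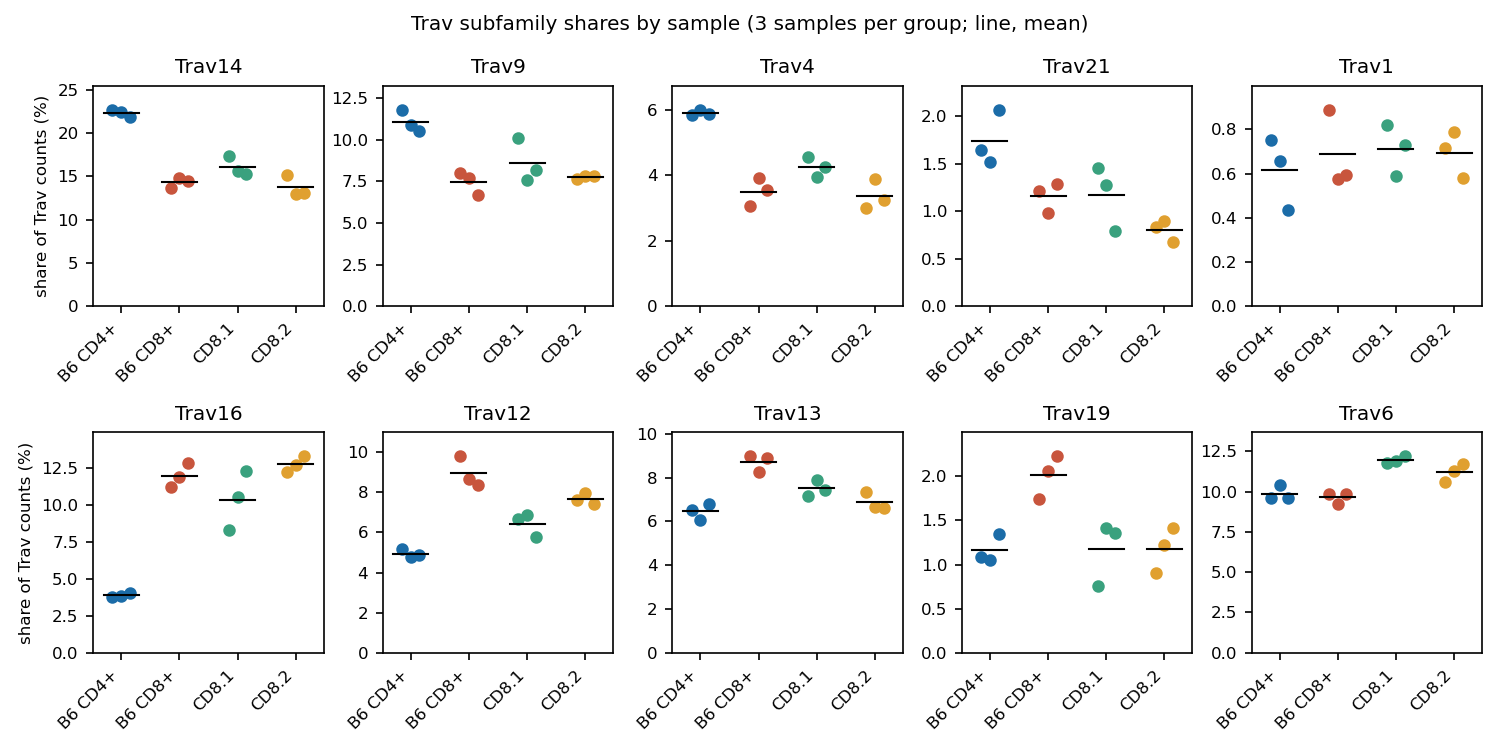
Share of all Trav counts, in percent on an axis from 0 that differs between panels, for 10 subfamilies in the 12 samples (points) with group means (lines). Trav16 is at 3.8% to 4.02% in B6 CD4+ and between 8.27% and 13.3% in the other 9 samples, while Trav14 is at 21.8% to 22.7% in B6 CD4+ and between 13.0% and 17.4% elsewhere.

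Trav14 (Vα2) took 22.7%, 22.4% and 21.8% of Trav counts in the B6 CD4+ samples and 13.7%, 14.8% and 14.5% in the B6 CD8+ samples. Its level was higher in B6 CD4+ by 1.09 on the log2 scale (SE 0.0841, adjusted p = 9.69e-08, edgeR). All 5 measured members were higher, but unequally. Trav14d-3-dv8 was at 5.72%, 4.92% and 4.61% against 2.37%, 2.56% and 2.68%, a log2 difference of 1.45 (SE 0.17). Trav14n-3 was at 4.98%, 4.73% and 4.75% against 2.8%, 2.54% and 2.4%, a difference of 1.36. Trav14-1, in contrast, was at 4.11%, 4.88% and 4.4% against 3.81%, 4.75% and 4.3%, and its log2 difference in level of 0.51 (SE 0.142, adjusted p = 0.0153, edgeR) went with overlapping shares.

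Trav4 (Vα11) followed the same direction. Its shares were 5.84%, 6.01% and 5.89% in B6 CD4+ and 3.05%, 3.92% and 3.54% in B6 CD8+, a log2 difference in level of 1.18 (SE 0.142, adjusted p = 1.37e-05, edgeR), and all 3 measured members were higher. Trav4-4-dv10 stood at 3.32%, 3.45% and 3.54% against 1.44%, 1.87% and 1.6%. Trav4-2, a low segment with a mean of 25.1 counts, had the largest log2 difference of any segment at 2.2.

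Trav9 (Vα3) was at 11.8%, 10.9% and 10.5% against 7.97%, 7.71% and 6.66%, higher in level by 1.03 (SE 0.102, adjusted p = 1.85e-06, edgeR), with all 5 measured members higher. Trav9-1 was at 2.71%, 2.23% and 2.38% against 1.19%, 1.36% and 1.13%, and the low segment Trav9d-1 at 0.811%, 0.633% and 0.479% against 0.208%, 0.453% and 0.266%. Trav21, whose single member Trav21-dv12 lies nearest to the J segments among the used subfamilies, was at 1.64%, 1.52% and 2.07% against 1.21%, 0.984% and 1.29%, higher in level by 1.04 (SE 0.226, adjusted p = 0.00304, edgeR). Trav6, Trav7, Trav10, Trav15, Trav17 and Trav5 were the other subfamilies higher in level. The shares of Trav5, Trav6 and Trav15 overlapped between the groups.

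Trav16 went the other way. It took 3.8%, 3.84% and 4.02% of Trav counts in B6 CD4+ and 11.2%, 11.9% and 12.8% in B6 CD8+, and its level was lower in B6 CD4+ by -1.17 (SE 0.136, adjusted p = 9.86e-06, edgeR). Every B6 CD8+ share was more than any B6 CD4+ share. All 3 members were lower, by -1.21 for Trav16n, -1.08 for Trav16 and -1.26 for Trav16d-dv11, a narrow range beside that of Trav14. Trav16n alone was at 1.61%, 1.86% and 1.8% against 5.42%, 5.76% and 5.53%.

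Trav12 (Vα8) was the other subfamily lower in B6 CD4+, at 5.17%, 4.79% and 4.89% against 9.81%, 8.67% and 8.38%, with a log2 difference in level of -0.4 (SE 0.107, adjusted p = 0.0121, edgeR). This call was lost without B6 CD4+ replicate 3 (adjusted p = 0.0501) or B6 CD8+ replicate 1 (adjusted p = 0.0514, edgeR). Only 3 of its 10 rows were measured, Trav12-1, Trav12-2 and Trav12-3, and the first 2 were called lower. Trav12-1 was at 1.05%, 0.765% and 0.902% against 2.52%, 1.5% and 2.09%. Trav12-3 was not lower in level, at 0.3 on the log2 scale. Its shares overlapped, at 1.87%, 1.83% and 1.68% against 1.86%, 2.19% and 1.93%. Trav8d-2 was the remaining segment named as lower, at 0.663%, 0.593% and 0.409% against 1.31%, 1.56% and 1.35%. The call of Trav12-1 was lost without any 1 of 4 samples (adjusted p = 0.0908 to 0.151) and that of Trav8d-2 without B6 CD4+ replicate 3 or B6 CD8+ replicate 2 (adjusted p = 0.0692 and 0.0668, edgeR). Shares of Trav13 (6.07% to 6.81% against 8.26% to 8.98%) and Trav19 (1.05% to 1.35% against 1.74% to 2.23%) were also lower without overlap, though their levels did not pass the test at 0.0265 and -0.34 on the log2 scale. On the scale of the Trav total they were lower by -0.43 (adjusted p = 0.00206) and -0.79 (adjusted p = 0.00799, edgeR), as were Trav2 by -0.89, Trav8 by -0.38 and Trav3 by -0.29. Trav1 (Vα19), used by MAIT cells, was at 0.437% to 0.752% and 0.578% to 0.89%, overlapping.

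CD8.1 and CD8.2 cells, which compare the same lineages where both bear CD8 and are selected on MHC class I, are the next pair. Of the 66 segments 12 were higher in CD8.1, or 18.2%, beside 14.9% of all genes, and 0 were lower beside 13.8%. At an unadjusted p under 0.05 there was 1 lower segment, and the DESeq2 Wald test gave 15 higher and 0 lower. Of the subfamilies 7 of 18 were higher, where 14.9% of the rows of that table were, and 0 were lower, where 13.8% were, with 0 also at an unadjusted p under 0.05 and by DESeq2. Leaving out CD8.2 replicate 1 gave 6 segments and 4 subfamilies. Scaled to the Trav total, 4 segments were higher and 3 lower, with 7.71% and 41.2% of all genes called. On that scale 0 subfamilies were higher (3 at an unadjusted p under 0.05 by edgeR) and 2 lower, beside 7.7% and 41.3% of the rows.

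Trav16 was at 8.27%, 10.5% and 12.3% in CD8.1 and 12.2%, 12.7% and 13.3% in CD8.2. These shares overlapped, and the level differed by -0.0244 on the log2 scale (SE 0.131, adjusted p = 0.91, edgeR). On the scale of the Trav total it was lower in CD8.1 by -0.31 (SE 0.124, unadjusted p = 0.0239, adjusted p = 0.0491, edgeR). Trav8, a subfamily at 4.83% to 6.04% in CD8.1 and 6.87% to 7.26% in CD8.2, was lower by -0.41 on that scale (adjusted p = 0.00999, edgeR). For Trav16, CD8.1 replicate 1 had the lowest share of the 3, and it was the library nearest to B6 CD4+ in usage. Trav14 was at 17.4%, 15.6% and 15.3% against 15.1%, 13.0% and 13.1%, a level difference of 0.51 (SE 0.0853, adjusted p = 0.00035, edgeR), and 4 of its 5 members were higher. Scaled to the Trav total, the Trav14 difference was 0.23 (adjusted p = 0.067, edgeR).

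Trav4 was at 4.57%, 3.95% and 4.27% against 3.0%, 3.88% and 3.25%, higher in level by 0.61 (SE 0.147, adjusted p = 0.00596, edgeR) and by 0.33 scaled to the Trav total (adjusted p = 0.0623). Trav9 was at 10.1%, 7.6% and 8.16% against 7.65%, 7.82% and 7.79%, with overlapping shares and a level difference of 0.42 (adjusted p = 0.00715, edgeR). Trav6 was at 11.8%, 11.9% and 12.2% against 10.6%, 11.3% and 11.7%, higher in level by 0.38 (adjusted p = 0.0101, edgeR), a call lost without CD8.2 replicate 1 (adjusted p = 0.0696) and when scaled to the Trav total (0.1, adjusted p = 0.429, edgeR). The Trav9 difference was 0.14 on that scale (adjusted p = 0.339, edgeR). The largest segment differences were 1.24 for Trav13-4-dv7, at 0.84%, 0.918% and 1.01% against 0.67%, 0.353% and 0.411%, and 1.22 for Trav6d-4, at 0.86%, 1.28% and 1.52% against 0.462%, 0.624% and 0.779%. Trav7-4 and Trav14n-3 completed the segments named as higher, at 0.69 and 0.47 on the log2 scale. Without CD8.2 replicate 1 their adjusted p was 0.0537 and 0.0502, and without CD8.1 replicate 2 that of Trav7-4 was 0.0682 (edgeR). On the scale of the Trav total neither was called, Trav7-4 at 0.4 (adjusted p = 0.0651) and Trav14n-3 at 0.19 (adjusted p = 0.265, edgeR).

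Set side by side, the lineage differences of the 2 strains, which share no samples, had a Pearson r of 0.559 and a Spearman rho of 0.604 across the 66 segments, which are not independent replicates and share their libraries. Of the 28 segments higher in B6 CD4+, 25 (89.3%) had a positive difference in CD8.1 against CD8.2, where 50 of all 66 segments (75.8%) did, and 9 (32.1%) were called higher there. Of the 1499 genes of the whole table that were higher in B6 CD4+, 96.4% had a positive difference in CD8.1 against CD8.2 and 71.1% were called. Both shares were smaller among the Trav segments than among all genes. The genes and segments were not matched for count, and the used segments had mean counts of 10.5 to 255. No weaker agreement particular to Trav is read from these shares. The median difference of the 28 segments was 1.04 in B6 and 0.43 in CD8Dual. Of the 6 segments lower in B6 CD4+, 3 had a negative difference in CD8.1 against CD8.2 and 0 were called lower. The matching share among all genes lower in B6 CD4+ was not worked out, so nothing particular to Trav is read from this count. The plot of the lineage differences shows both comparisons for each segment.

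**Figure D3:**
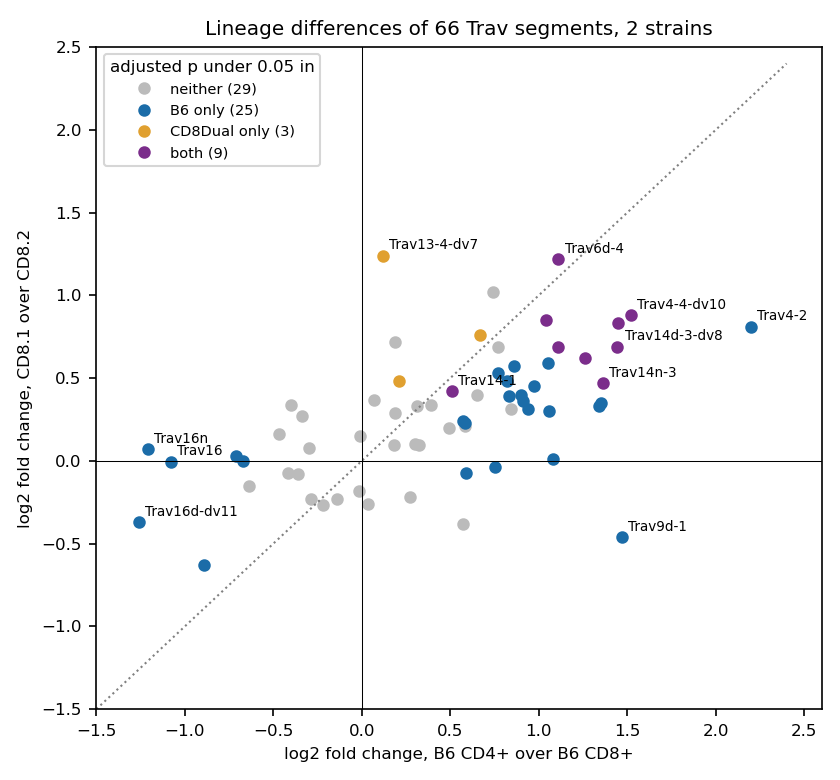
Log2 fold change of 66 Trav segments between B6 CD4+ and B6 CD8+ (horizontal) and between CD8.1 and CD8.2 (vertical), coloured by the comparison in which the adjusted p was under 0.05, with a dotted line of equal change. The 9 segments called in both lie on the upper right, and the 3 Trav16 members lie on the left between -0.37 and 0.0704 on the vertical axis.

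The difference between these lineage effects was tested directly as an interaction. It was called for 2 segments above 0, beside 1.58% of all genes, and for 1 below 0, beside 0.29%. Trav16n and Trav16 were above, at 1.28 (SE 0.23, adjusted p = 0.00639) and 1.07 (SE 0.228, adjusted p = 0.0208, edgeR), and Trav14n-3 below at -0.89 (SE 0.165, adjusted p = 0.00808, edgeR). Among subfamilies 1 was above, where 1.59% of rows were, and 2 below, where 0.298% were. Trav16 stood at 1.15 (SE 0.189, adjusted p = 0.00312), Trav14 at -0.57 (SE 0.119, adjusted p = 0.0181) and Trav9 at -0.61 (SE 0.146, adjusted p = 0.0458, edgeR). Trav9 was at an adjusted p of 0.054 with a replicate block within each strain and was lost without any 1 of 10 of the 12 samples (adjusted p = 0.0596 to 0.153, edgeR). Trav14 was lost without B6 CD4+ replicate 2, B6 CD8+ replicate 1 or CD8.2 replicate 1 (adjusted p = 0.0541 to 0.0562), and the Trav16 segment without any 1 of 7 samples (adjusted p = 0.0508 to 0.0704, edgeR). The Trav16 subfamily and Trav16n kept an adjusted p under 0.05 in every alternative run. Without CD8.1 replicate 1 there were 11 segments, and leaving out B6 CD4+ replicate 2, B6 CD8+ replicate 1 or CD8.2 replicate 1 left 1 subfamily each. Scaled to the Trav total, 3 segments were above and 0 below, beside 2.95% and 0.175% of all genes, with 6 below at an unadjusted p under 0.05. Of the subfamilies 2 were above, Trav16 and Trav12, and 0 below (2 at an unadjusted p under 0.05), beside 2.95% and 0.176% of the rows. Trav14n-3 was at -0.71 (adjusted p = 0.0501, edgeR). DESeq2 was not run on this scale. The Trav16 subfamily stood at 1.32 (adjusted p = 0.000143), while Trav14 at -0.4 and Trav9 at -0.43 did not pass (adjusted p = 0.132 and 0.187, edgeR).

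CD8.1 cells were compared with B6 CD4+ cells, the helper lineage with and without its CD4 locus changed. The selecting MHC class differs as well, class I for CD8.1 and class II for B6 CD4+. Of the 66 segments 3 were higher in CD8.1, or 4.55%, and 16 lower, or 24.2%, beside 6.94% and 5.82% of all genes. Of the subfamilies 1 was higher and 6 lower, beside 6.95% and 5.75% of the rows. Without B6 CD4+ replicate 2 there were 12 segments in all, and fitting only these 2 groups gave 11. After scaling to the Trav total, 9 segments were higher and 8 lower, where 50.6% and 0.976% of all genes were called. Of the subfamilies 4 were then higher and 3 lower, beside 50.8% and 0.941% of the rows.

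Trav16 was the subfamily that was higher in CD8.1, by 1.04 in level (SE 0.137, adjusted p = 0.000303, edgeR), and its 3 members were the 3 segments called. The mean share of Trav16 was 10.3% ± 1.99 in CD8.1 and 3.89% ± 0.115 in B6 CD4+ (SD, n = 3), without overlap. Trav16n rose by 1.22, Trav16 by 0.89 and Trav16d-dv11 by 0.81, and the last was lost without B6 CD4+ replicate 1, B6 CD4+ replicate 2 or CD8.1 replicate 2 (adjusted p = 0.135, 0.101 and 0.189, edgeR). Lower in CD8.1 were Trav21 at -0.93 (adjusted p = 0.0157), Trav4 at -0.85 (adjusted p = 0.00163), Trav14 at -0.85 (adjusted p = 2.09e-05) and Trav9 at -0.75 (adjusted p = 0.000386, edgeR), as well as Trav17 at -0.61 and Trav7 at -0.51. On the scale of the Trav total the last 2 were not called, at -0.23 (adjusted p = 0.323) and -0.14 (adjusted p = 0.276, edgeR). Fitting only the 2 groups, Trav21 had an adjusted p of 0.062, and scaled to the Trav total 0.0536 (edgeR). On that scale Trav16 stood at 1.41, Trav2 at 0.85 and Trav12 at 0.39, all higher in CD8.1 (adjusted p = 6.2e-07, 0.0205 and 0.0103, edgeR). All 5 Trav14 members and 4 of 5 Trav9 members were lower. Trav9d-1 had the largest difference, -1.65, with shares of 0.266%, 0.312% and 0.203% in CD8.1, and Trav14-2 followed at -1.16, with 3.3%, 2.39% and 2.74% against 4.69%, 4.73% and 5.02% in B6 CD4+. Trav7-5, Trav4-4-dv10 and Trav14-3 were at -0.96, -0.96 and -0.95.

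CD8.2 cells were compared with B6 CD8+ cells, the cytotoxic lineage of the other strain. Of the 66 segments 0 were higher in CD8.2 and 5 lower, or 7.58%, beside 3.29% and 4.66% of all genes, and 0 and 3 of 18 subfamilies were, beside 3.27% and 4.65% of the rows. At an unadjusted p under 0.05 there was 1 higher segment and 0 higher subfamilies, and DESeq2 gave 0 of each. The 5 segment calls were not stable: leaving out any 1 of the 6 samples gave 0 to 2, with 0 without B6 CD8+ replicate 2, CD8.2 replicate 2 or CD8.2 replicate 3. After scaling to the Trav total, 1 segment was higher and 3 lower, beside 18.7% and 2.1% of all genes. The subfamilies gave 0 higher (2 at an unadjusted p under 0.05 by edgeR) and 2 lower on that scale, Trav13 and Trav19, beside 18.8% and 2.12% of the rows.

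The subfamilies lower in CD8.2 were Trav19 at -0.95 (SE 0.26, adjusted p = 0.0368), Trav13 at -0.54 (SE 0.0923, adjusted p = 0.00245) and Trav12 at -0.43 (SE 0.107, adjusted p = 0.0242, edgeR). Without B6 CD8+ replicate 2, CD8.2 replicate 1 or CD8.2 replicate 3, 1 subfamily was called in each case. Trav19 lost its call without any 1 of 5 samples and Trav12 without any 1 of 4 (adjusted p up to 0.14 and 0.0986, edgeR). On the scale of the Trav total Trav12 was at -0.23 (adjusted p = 0.158, edgeR). Trav19 was at 0.901%, 1.22% and 1.42% in CD8.2 and 1.74%, 2.06% and 2.23% in B6 CD8+. Trav13 was at 7.35%, 6.65% and 6.59% against 8.98%, 8.26% and 8.89%, and Trav12 at 7.6%, 7.95% and 7.43% against 9.81%, 8.67% and 8.38%. The named segments were Trav13-4-dv7 at -1.06, Trav19 at -0.95, Trav13-2 at -0.89 and Trav13-1 at -0.52, and each lost its call in 4 to 6 of the 6 fits that left out 1 sample. Trav13-1 was at -0.32 on the scale of the Trav total (adjusted p = 0.136, edgeR). Trav12-2, at -0.43, was the fifth segment called. Trav16 and Trav14 did not pass the test, at -0.11 (SE 0.131, adjusted p = 0.676) and -0.27 (SE 0.0853, adjusted p = 0.0637, edgeR).

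The distance between whole usage profiles over the 66 segments puts these comparisons on 1 scale. The Jensen-Shannon distance (base 2, from 0 for identical to 1 for disjoint usage) was 0.0731 to 0.081 among B6 CD4+ samples, 0.0808 to 0.0921 among B6 CD8+, 0.0957 to 0.13 among CD8.1 and 0.0792 to 0.0952 among CD8.2. These values hold sampling noise as well as differences between samples. B6 CD4+ and B6 CD8+ were at 0.228 on average (0.218 to 0.235 over 9 pairs), and B6 CD4+ and CD8.2 at 0.229 (0.222 to 0.237). B6 CD8+ and CD8.2 were at 0.109 (0.104 to 0.118). CD8.1 lay at 0.129 from CD8.2 (0.116 to 0.15), 0.141 from B6 CD8+ (0.123 to 0.16) and 0.177 from B6 CD4+ (0.147 to 0.207). To the mean profile of B6 CD4+, the CD8.1 samples were at 0.141, 0.178 and 0.195, and to that of B6 CD8+ at 0.149, 0.117 and 0.129. Replicate 1 of CD8.1 was thus closer to B6 CD4+ and replicates 2 and 3 closer to B6 CD8+. These are descriptions with no test.

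**Figure D4:**
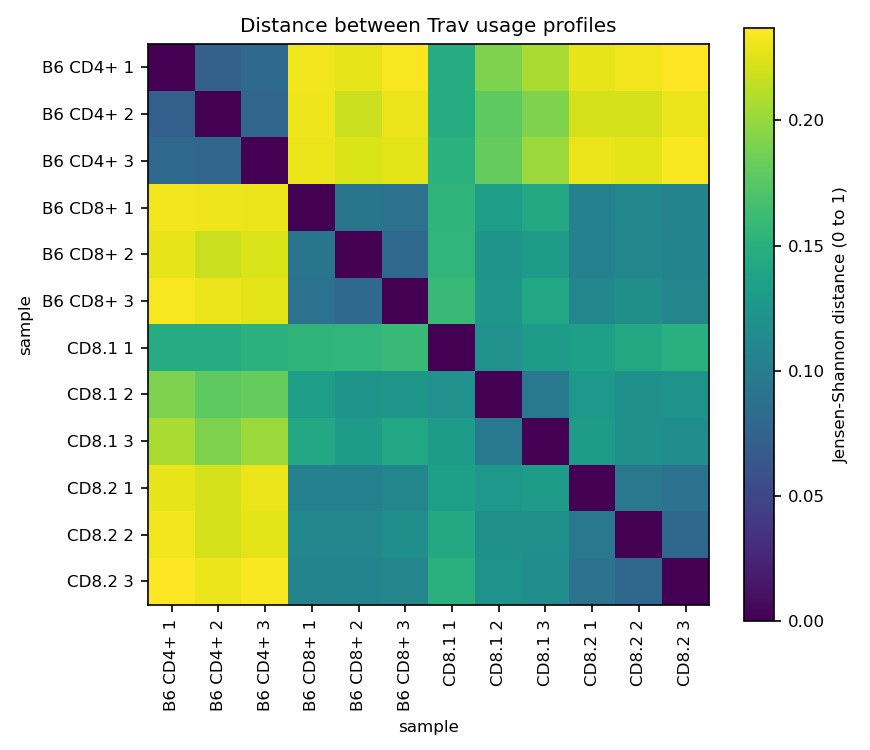
Jensen-Shannon distance (colour, drawn from 0 to the highest value, of a measure that runs from 0 to 1) between the Trav usage profiles of each pair of the 12 samples, in the same order on both axes. The B6 CD4+ samples stand apart from B6 CD8+ and CD8.2 at 0.218 to 0.237, and CD8.1 lies between at 0.147 to 0.207 from B6 CD4+.

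Shares by position along the locus also differed between the groups. During rearrangement the V segments close to the J segments are in general joined early, and those farther away follow as the same allele is rearranged again. The 128 rows in chromosome order were split into 43 far from the J segments, 43 in the middle and 42 near, of which 17, 18 and 31 were used. The near segments held 63.4%, 64.2% and 65.4% of Trav counts in B6 CD4+, 61.6%, 62.8% and 62.2% in B6 CD8+. CD8.1 samples had 59.4%, 60.7% and 60.0%, and CD8.2 samples had 57.2%, 56.5% and 56.8%. No 2 of the 4 groups overlapped, and both CD8Dual groups lay under both B6 groups. The middle segments ran the opposite way, with means of 23.5% ± 0.351, 24.8% ± 0.2, 26.6% ± 0.4 and 28.0% ± 0.608 (SD, n = 3). These shares are not separate from the Trav16 result. In the same order of groups, the middle part holds Trav16n, with mean shares of 1.76%, 5.57%, 5.32% and 6.14%. It also holds Trav16d-dv11, at 0.642%, 2.12%, 1.44% and 2.28%. The near part holds the Trav16 segment, at 1.49%, 4.29%, 3.57% and 4.34%. Shares by position without Trav16 were not worked out. The far segments held 10.4% to 12% in B6 CD4+ and 14.2% to 14.9% in CD8.2. Segments named for use in the delta chain as well (dv) held 13.5% to 14.5% in B6 CD4+ and 10.9% to 13.1% in CD8.1, against 9.9% to 10.8% in B6 CD8+ and 9.37% to 9.88% in CD8.2. Its members went both ways between B6 CD4+ and B6 CD8+. Mean shares were 5.08% and 2.54% for Trav14d-3-dv8 and 3.44% and 1.64% for Trav4-4-dv10, but 0.642% and 2.12% for Trav16d-dv11.

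**Figure D5:**
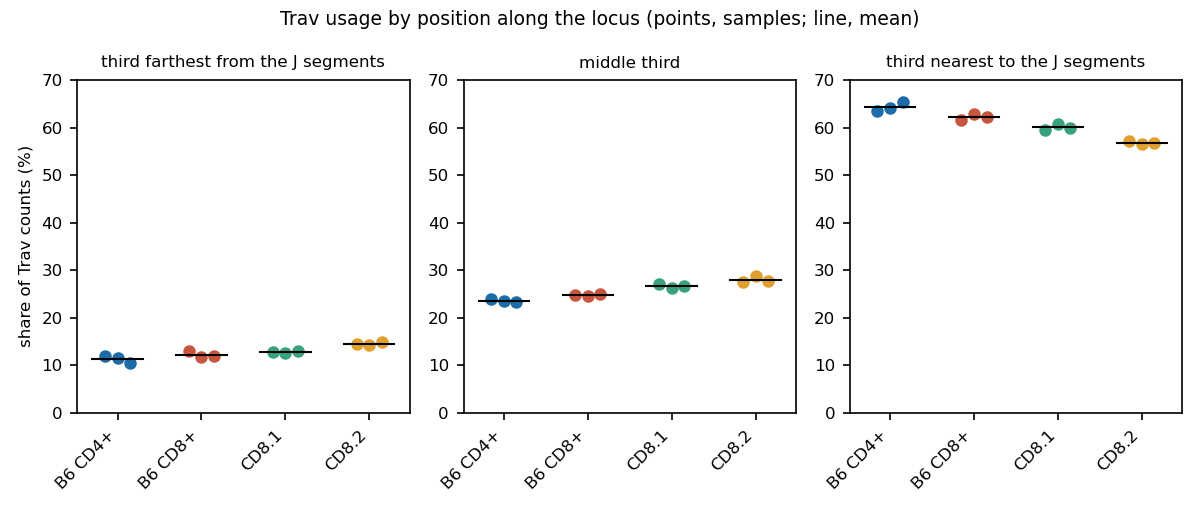
Share of Trav counts, in percent from 0, held by used segments in the part of the locus farthest from, in the middle of and nearest to the J segments, for each sample (points) with group means (lines). The nearest part is at 63.4% to 65.4% in B6 CD4+ and at 56.5% to 57.2% in CD8.2.

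The share of Trav6 was higher in the CD8Dual groups. It was at 9.62%, 10.4% and 9.61% in B6 CD4+, 9.83%, 9.24% and 9.85% in B6 CD8+, and at 10.6% to 12.2% in all 6 CD8Dual samples. Its level did not pass the test in either comparison between strains, at -0.1 and 0.0133 on the log2 scale. Scaled to the Trav total, CD8.1 was above B6 CD4+ by 0.27 (unadjusted p = 0.0108, adjusted p = 0.0247, edgeR). CD8.2 was above B6 CD8+ by 0.21 (unadjusted p = 0.0448, adjusted p = 0.13, edgeR).

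The other genes of the locus and of its rearrangement were read from a list of 72 rows. Traj segments are short and only 20 of 60 were tested, with 225 to 466 Traj counts in all per sample. Traj31, with a mean of 11.2 counts, was higher in B6 CD4+ than in B6 CD8+ by 1.62 (adjusted p = 0.00492, edgeR). It was 1 of the 20, beside 11.4% of all genes. Traj40, with a mean of 7.0 counts, was lower in CD8.1 than in B6 CD4+ by -2.09 (adjusted p = 0.0344, edgeR). It was 1 of the 20, beside 5.82% of all genes. These were the only Traj calls in the 5 comparisons, and both rest on few counts. Trdc, the delta constant gene, followed Trac, at 0.46 in B6 (adjusted p = 0.00693) and 0.65 in CD8Dual (adjusted p = 0.000546, edgeR). Trdv1, 1 of 2 delta V segments tested, was higher in B6 CD4+ than in B6 CD8+ by 1.02 and lower in CD8.1 than in B6 CD4+ by -0.86 (adjusted p = 0.0093 and 0.0428, edgeR). Dntt, which encodes the enzyme that adds nontemplated bases at the joins, was higher in B6 CD4+ than in B6 CD8+ by 0.99 (adjusted p = 0.00633) and in CD8.2 than in B6 CD8+ by 1.04 (adjusted p = 0.0153, edgeR), with mean levels of 5.6 CPM in B6 CD8+, 11.2 in B6 CD4+, 10.7 in CD8.1 and 11.6 in CD8.2. Rag1, Rag2 and Ptcra were too low to be tested.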

How the data were processed

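Lymph node T cells of 4 groups with 3 samples each were measured by bulk RNA-seq. RNA came from pooled sorted cells, per the labels. Per the study's methods it was amplified with a low-input template-switching kit, sequenced as read pairs of 125 bases, aligned with STAR to mm10 and counted with RSEM. The deposited table holds raw counts per gene, whole numbers made by the authors with no normalization, and its column names point to STAR. Which tool gave the counts, and the tool versions, are not given in the sources used here.

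All genes and 12 samples were fitted together in edgeR 4.0.16 (R 4.3.3) with TMM scaling, filterByExpr and the quasi-likelihood test, with 1 coefficient per group. P-values were adjusted by Benjamini-Hochberg over all genes tested (13118, or 13070 with Trav rows summed by subfamily), and an adjusted p under 0.05 is called a change. Subfamily fits sum all rows of a subfamily, while printed shares use the 66 rows with a mean of 10 or more counts, divided by all Trav counts. The interaction is CD8.1 against CD8.2 minus B6 CD4+ against B6 CD8+. Alternatives were DESeq2 1.42.0, its size factors, no filter on low counts, only the groups compared, scaling to the Trav total, a replicate block, leaving out each sample, the study's limits, a minimum mean of 100 counts and counts per exon length. Scripts were tested on simulated data. Depth was 18667474 to 37110502 counts per sample. Wilson intervals cover counting error only, and reads without molecular identifiers are not independent molecules. Windows and sequences came from GENCODE M21 transcripts (GRCm38).

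The members and lists were chosen with earlier results of these data known. Named subfamilies were Trav14, Trav9, Trav4, Trav12, Trav11 and Trav1, plus, per comparison and direction, the 3 that changed most among those called with shares that did not overlap. Named segments were the 5 that changed most per direction under the same conditions, the segments called in the interaction with the smallest p, and the 5 with the largest share per kilobase in each group. Trav14n-3 in B6, Trav14-1, Trav12-2, Trav12-3, Trav2, Trav3 and Trav8 were named after their values were seen. Samples with the same number deviated together in B6 (correlations over genes of 0.126, 0.138 and 0.257), so the numbers may pair the B6 samples. B6 samples with unlike numbers ran from -0.221 to 0.0999. The main fit did not use a pairing in either strain, and the replicate block is an alternative only. In CD8Dual the correlations were -0.00388, 0.0905 and 0.119, and they were not taken to pair.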

Additional observations from a re-analysis of the deposited data

Results flagged for a closer look

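The lineage difference was not the same in both strains for 6 results, by the interaction test of edgeR over all genes. The difference of CD8.1 against CD8.2 exceeded that of B6 CD4+ against B6 CD8+ for the Trav16 subfamily by 1.15 on the log2 scale (adjusted p = 0.00312), for Trav16n by 1.28 (adjusted p = 0.00639) and for the Trav16 segment by 1.07 (adjusted p = 0.0208). It was below it for the Trav14 subfamily at -0.57 (adjusted p = 0.0181), for Trav14n-3 at -0.89 (adjusted p = 0.00808) and for the Trav9 subfamily at -0.61 (adjusted p = 0.0458). The segments are part of the subfamilies, so these are not 6 separate signals. With 3 samples a group, no test for a single distant sample was made.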

How the results depend on the processing

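With the study's limits, a fold over 5 and an unadjusted p under 0.05, 0 segments and 0 subfamilies were called in any of the 5 comparisons. Scaled to the Trav total, CD8.1 against CD8.2 gave 7 segments and 2 subfamilies in place of 12 and 7. Fitting only the groups compared gave 11 segments for CD8.1 against B6 CD4+ and 8 segments and 5 subfamilies for CD8.2 against B6 CD8+, where DESeq2 gave 5 subfamilies as well. For the interaction, DESeq2 gave 6 segments and no filter on low counts gave 5. Leaving out 1 sample gave 6 to 13 segments and 4 to 7 subfamilies for CD8.1 against CD8.2, 12 to 21 segments for CD8.1 against B6 CD4+, 0 to 2 segments and 1 to 2 subfamilies for CD8.2 against B6 CD8+, and 2 to 11 segments and 1 to 4 subfamilies for the interaction. The cause was not tested.

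The summed Trav difference between CD8.1 and CD8.2 was 0.22 to 0.3 on the log2 scale when 1 sample was left out, with an adjusted p of 0.0594 without CD8.2 replicate 1. For CD8.2 against B6 CD8+ it was -0.2 and passed with DESeq2 (adjusted p = 0.0383) and with only the groups compared (adjusted p = 0.0317).

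With segments of a mean of 100 or more counts, the Trav16 share was 3.24% in B6 CD4+, 9.86% in B6 CD8+ and 10.5% in CD8.2, and per exon length it was 3.77% in B6 CD4+. The effective number of segments was 18.8, 18.3, 18.9 and 18.4 at that minimum, since fewer segments enter, and 49.1, 50.0 and 51.6 per exon length in B6 CD4+, B6 CD8+ and CD8.2. Summed by subfamily, distances were 0.193, 0.145 and 0.195 from B6 CD4+ to B6 CD8+, CD8.1 and CD8.2, 0.0913 and 0.0717 from B6 CD8+ to CD8.1 and CD8.2, and 0.079 between CD8.1 and CD8.2. The last 3 were 0.114, 0.0742 and 0.1 at the minimum of 100 counts.

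With the replicate block, 36 segments and 12 subfamilies were called in B6 and 14 and 7 in CD8Dual. Among the named results the block ended the Trav9 interaction (adjusted p = 0.054) and no other call. Over all alternatives to the named results, 552 values kept direction and call, 78 kept direction and lost the call, and 0 reversed. Low Trav counts, 3684 in the shallowest sample, limit the smaller segments most.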
